A study of Mus musculus with 20 samples.

Results

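The 10 genes described here form the core loop of the circadian clock: Per1, Per2, Per3, Cry1, Cry2, Nr1d1, Nr1d2, Arntl, Clock and Npas2. They were chosen by name, with earlier results of these data known, and 10 of 10 were found among the 12988 genes of the count table. RNA was sequenced from the anterodorsal BNST (adBNST), where BNST is the forebrain's bed nucleus of the stria terminalis, tied to anxiety and stress responses, of male and female mice. Stressed mice had lived through chronic variable mild stress (CVMS), a schedule of changing minor stressors over 6 weeks that included altered bedding, isolation, swims, restraint and shifts of the light and dark periods. The 4 groups were female control, female stressed, male control and male stressed, with 15 mice each that were 7 to 9 weeks old at the start. Every group was anesthetized with ketamine before the brain was removed, and stressed mice were taken 1 hour after their last stressor, wet bedding. A library pooled the tissue of 3 mice, so that each group has 5 libraries, 20 over the study. No genotype, strain or hour of the day is given in the sources used here. An hour of collection that differed between groups could therefore not be told apart from stress or sex. The shifts of the light and dark periods and the last stressor, 1 hour before collection, were part of CVMS. Their effects could not be told apart from those of the other weeks of stress.

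In the circadian loop, the proteins of Arntl (BMAL1) and of Clock, or of its relative Npas2, pair up and switch on the Per and Cry genes through E-box sequences, and PER and CRY proteins then return to the nucleus and shut that pair down. The same pair drives Nr1d1 and Nr1d2, whose REV-ERB proteins repress Arntl. Per1 is also known as an immediate responder to neuronal activity and to glucocorticoids, and Npas2 is known as the member of the pair that is abundant in the forebrain.

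Library totals ran from 2.71 M counts (female control 4) to 33.6 M (male stressed 4), and the lowest count of any of the 10 genes in any library was 85 (Cry1, female control 4). Over all genes, log2 expression of the 40 pairs of libraries of the same group correlated at r = 0.986 to 0.996. Over the 10 clock genes, r ran from 0.924 to 0.992 with a median of 0.975. These are correlations across genes, which are not independent replicates, and the lowest belonged to female control 1 and female control 3. The 12 markers fixed for adBNST neurons were all detected, with the lowest mean level at 15.8 CPM (Cck). CPM here means counts scaled to a common library size after TMM scaling. Female stressed 2 stood apart from its group in marker scores, where a score is the mean log2 CPM of a marker list, centred on 0. Its thalamic score was 0.579 and its striatal score -0.468, against group means of -0.0099 and 0.118. Its hypothalamic score, from 3 genes, was 1.61 against a group mean of -0.104. The thalamic list shares Prkcd with the adBNST neuron list and Rora with the further clock genes below, so it is not particular to the thalamus. Female stressed 2 held the lowest value of its group for 7 of the 10 clock genes, and so did female control 3 in its own group, whose striatal score was -0.395. Female stressed 5 held the highest value of its group for 8 of the 10. Of the markers of other cells, at an unadjusted p under 0.05 for stress in females and in males, there were 1 and 2 of 10 for astrocytes, 1 and 3 of 10 for microglia and 3 and 4 of 9 for endothelial cells. For thalamic neurons there were 0 and 0 of 8, for septal neurons 0 and 2 of 7, for hypothalamic neurons 0 and 0 of 3 and for adBNST neurons 0 and 5 of 12, with none called by edgeR in these comparisons. In bulk tissue, fewer cells of a type and less RNA per cell cannot be told apart.

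Per unit of exon length, the REV-ERB genes were the most abundant of the loop and Per3 and Arntl the least. The length joins the exons of all annotated transcripts of a gene, and the order depends on it. Clock, with 13.7 kb, had the highest mean of the 10 genes before scaling by length, at 139 CPM. Over all 20 libraries the levels in CPM per kb of exon were 34.5 ± 3.02 (SD) for Nr1d1, 24.3 ± 1.67 for Nr1d2 and 21.5 ± 2.14 for Cry2. Per1 followed at 19.4 ± 3.29 CPM per kb, Npas2 at 15.0 ± 2.66 and Per2 at 11.98 ± 1.87. Clock stood at 10.2 ± 0.479 CPM per kb, Cry1 at 9.75 ± 1.29, Per3 at 5.85 ± 0.896 and Arntl at 5.598 ± 0.766. Nr1d1, at 30.2 to 42.0 CPM per kb, did not overlap its neighbour Nr1d2, at 21.3 to 27.7. At every other step of the order the ranges of the neighbouring genes overlapped, so that Cry2 and Per1, Clock and Cry1, and Per3 and Arntl were not separated beyond their spread. Reads of Nr1d1, Cry2 and Arntl are uncertain to a degree, because some of their exonic bases are shared with genes on the opposite strand. Nr1d1 shares 263 bases with Thra, Cry2 295 with D930015M05Rik and Arntl 33 with Gm45355. Of these other genes only Thra is in the count table. The strand setting of the counting is not given in the sources used here.

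The 10 genes lie on 8 chromosomes (GRCm38, GENCODE M21), of which chromosome 11 holds Per1 (chr11:69095217-69109960) and Nr1d1 (chr11:98767932-98775333) and chromosome 1 holds Per2 (chr1:91415982-91459324) and Npas2 (chr1:39193731-39363236). RefSeq promoters of build GRCm38.p6, from 250 bases before to 50 after a gene start, were at hand for 9 of the 10 genes (13 promoters). They were searched on both strands for the E-box CACGTG and its E-prime variant CACGTT, through which CLOCK and BMAL1 act, and for the D-box TTATGTAA, which DBP, TEF and HLF bind. The ROR/REV-ERB cores TAGGTCA and TGGGTCA, the cAMP response element TGACGTCA and the palindromic glucocorticoid response element were searched as well. No motif contains another, and none of the matches overlapped another. Among 32851 promoters of the same length, 7.15% held the E-box, 4.68% the E-prime box, 0.938% the D-box, 2.61% TAGGTCA, 3.98% TGGGTCA, 1.79% the cAMP response element and 0.00913% the glucocorticoid response element. Counted by gene, over 27025 genes, the shares were 8.09% for the E-box, 5.44% for the E-prime box and 1.11% for the D-box. They were 2.97% for TAGGTCA, 4.57% for TGGGTCA, 2.03% for the cAMP response element and 0.0111% for the glucocorticoid response element. Of the 9 genes, 6 held at least 1 motif. The share of all genes with at least 1 of these motifs was not counted, so the 6 of 9 cannot be judged against it. Capitals mark the motifs, and each sequence is written 5′ to 3′ on the strand of its gene. Npas2 carries comparisons that follow as much as these genes do, but its promoter held no motif and its sequence is not given. The 5 promoters with a sequence given each held at least 1 motif, and so do not represent all 13. They are Per1 (chr11:69098699-69098998, plus strand, E-box at -166 from the start), Per3 (chr4:151044616-151044915, minus strand, D-boxes at -205 and -158), Cry1 (chr10:85185005-85185304, minus strand, E-prime box at -79 and E-box at -60), Cry2 (chr2:92434020-92434319, minus strand, E-prime box at -166) and Arntl (chr7:113207261-113207560, plus strand, the core TAGGTCA at 30 bases after the start). Per1 has 2 RefSeq promoters, both downstream of the outermost GENCODE start of the gene: the first is shown, and the second (chr11:69099902-69100201) held no motif. Of the 2 Arntl promoters the second is shown, and the first held none. Positions count from the RefSeq start of each promoter. Where the capitals read AACGTG, the E-prime box lies on the other strand.
Per1: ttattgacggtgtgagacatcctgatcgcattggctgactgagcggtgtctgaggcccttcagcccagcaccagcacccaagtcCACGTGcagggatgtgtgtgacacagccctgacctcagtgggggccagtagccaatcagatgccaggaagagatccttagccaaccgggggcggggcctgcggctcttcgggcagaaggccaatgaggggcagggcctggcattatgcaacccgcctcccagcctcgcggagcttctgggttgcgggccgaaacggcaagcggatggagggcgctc
Per3: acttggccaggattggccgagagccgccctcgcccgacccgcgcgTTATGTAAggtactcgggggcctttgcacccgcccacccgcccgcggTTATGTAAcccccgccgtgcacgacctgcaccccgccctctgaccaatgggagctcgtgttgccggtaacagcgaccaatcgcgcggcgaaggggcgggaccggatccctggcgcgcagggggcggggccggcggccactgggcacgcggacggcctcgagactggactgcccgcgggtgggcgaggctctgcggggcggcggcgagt
Cry1: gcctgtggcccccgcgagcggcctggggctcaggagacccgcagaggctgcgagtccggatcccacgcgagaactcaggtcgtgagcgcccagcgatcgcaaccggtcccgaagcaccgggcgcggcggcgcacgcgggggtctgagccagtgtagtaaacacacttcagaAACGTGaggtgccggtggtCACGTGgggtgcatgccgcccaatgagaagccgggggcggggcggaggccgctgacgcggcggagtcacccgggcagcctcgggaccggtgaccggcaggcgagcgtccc
Cry2: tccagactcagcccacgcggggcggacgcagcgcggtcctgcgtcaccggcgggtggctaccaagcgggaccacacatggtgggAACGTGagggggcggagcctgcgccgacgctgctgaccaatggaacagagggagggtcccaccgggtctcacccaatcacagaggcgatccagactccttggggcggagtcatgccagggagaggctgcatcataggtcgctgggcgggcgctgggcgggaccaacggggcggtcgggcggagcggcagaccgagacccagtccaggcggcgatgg
Arntl: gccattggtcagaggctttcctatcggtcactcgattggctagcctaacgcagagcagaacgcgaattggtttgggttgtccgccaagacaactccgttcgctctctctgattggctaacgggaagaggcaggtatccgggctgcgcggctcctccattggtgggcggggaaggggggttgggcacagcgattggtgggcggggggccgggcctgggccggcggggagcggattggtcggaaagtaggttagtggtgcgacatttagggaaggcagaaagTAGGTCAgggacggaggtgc
Nr1d1 held an E-prime box at -28, and the windows of Nr1d2, Clock and Npas2 held none of these letters. A match is a description of the letters and not of a bound site.

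**Figure D1:**
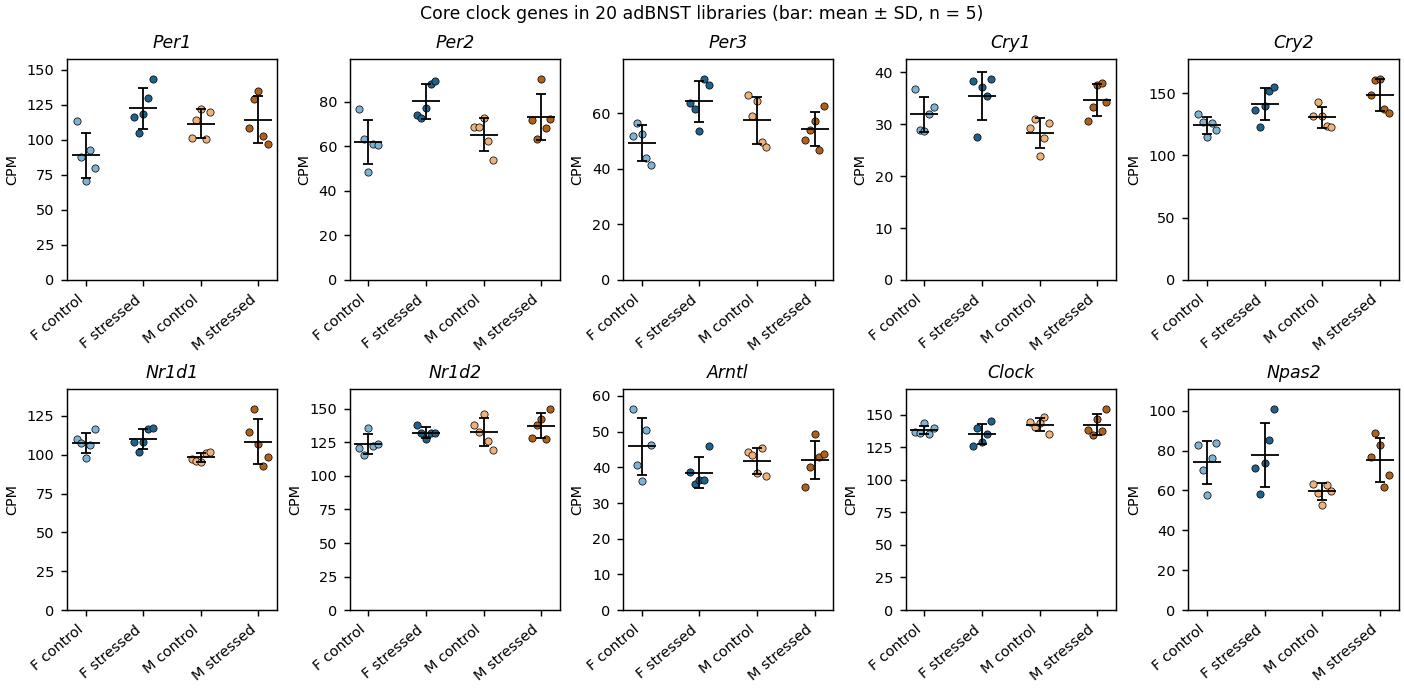
Expression of the 10 clock genes in CPM (y axis, 1 panel per gene, from 0) in each library (points) of the 4 groups, with bars at the mean ± SD of 5 libraries. Per1, Per2 and Per3 sit higher in stressed than in control females, Npas2 sits lowest in male controls, and Clock lies nearly level across the groups.

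The first question of the design is how CVMS altered the adBNST of females. None of the 10 genes passed the threshold (edgeR quasi-likelihood test, adjusted p under 0.05 over 12988 genes), where 0% of all genes passed it, and DESeq2 called 0 of the 10 and 1 gene in all. At an unadjusted p under 0.05 there were 5 of the 10 clock genes, 4 of them higher and 1 lower in stressed females, against 7.51% of all genes (3.69% higher and 3.83% lower). The 3 Period genes and Cry2 were the higher ones and Arntl the lower, so the repressor side and the activator Arntl stood on opposite sides of 0. Of the 10 genes 8 had a log2 fold change above 0, against 49.5% of all genes, and the members' median was 0.12 against -0.0011 over all genes.

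Per1, the Period gene best known for quick induction, was at 113, 87.7, 70.5, 93.0 and 80.0 CPM in the 5 female control libraries and at 116, 105, 119, 129.6 and 143 CPM in the stressed ones. Female control 1 lay within the range of the stressed libraries and the other control libraries lay below all of them. The means were 88.9 ± 16.1 and 122 ± 14.5 CPM (SD, n = 5 each), a log2 fold change of 0.46 (SE 0.11, unadjusted p = 0.000506, edgeR adjusted p = 0.389), which ranked 16 of 12988 by p. Leaving out 1 library at a time gave 0.38 (without female control 3) to 0.58 (without female control 1), and the lowest adjusted p among these fits was 0.190. With the striatal marker score as a covariate, Per1 was 1 of 4 genes called (0.0308% of all), at 0.45 (SE 0.07, edgeR adjusted p = 0.0372), against a range of 0.0372 to 0.650 over all the alternatives.

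Per2, a Period gene whose protein is a main scaffold of the repressor complex, was at 76.6, 63.3, 48.5, 61.0 and 60.6 CPM in female controls and at 74.0, 72.6, 77.1, 88.0 and 89.2 CPM in stressed females. Only female control 1 reached into the stressed range. The means were 62.0 ± 9.9995 and 80.2 ± 7.84 CPM, a log2 fold change of 0.37 (SE 0.11, edgeR adjusted p = 0.565). Per3, the third Period gene, which is dispensable for the loop itself in mice, was at 51.9, 56.6, 52.4, 43.7 and 41.3 CPM in female controls and at 63.7, 61.5, 53.7, 72.2 and 70.1 CPM in stressed females. The groups overlapped through female control 2 and female stressed 3 alone. Per3 means were 49.2 ± 6.41 and 64.2 ± 7.34 CPM, a log2 fold change of 0.36 (SE 0.11, edgeR adjusted p = 0.565). Its promoter above carries 2 D-boxes, a motif held by 0.938% of promoters, and their part in the Per3 values was not tested. The score of 13 oligodendrocyte markers moved beside the Period genes in these groups: their median log2 fold change was -0.21, with 6 of 13 at an unadjusted p under 0.05, none called, and summed levels of 9061 to 12975 CPM in female controls and 8503 to 10470 CPM in stressed females. None of these markers was at 0, the lowest mean being 36.5 CPM (Opalin). With that score as a covariate, Per1 was at 0.39 and Per2 at 0.23, and its part in the differences was not tested further.

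The Cryptochromes, the partners of the Period proteins in repression, differed less in females. Cry2 was at 133, 126, 115, 126 and 120.4 CPM in controls and at 137, 123, 139.6, 152 and 154 CPM in stressed females, of which only female stressed 2 fell within the control range. Its means were 124 ± 6.88 and 141 ± 12.7 CPM, a log2 fold change of 0.18 (SE 0.07, edgeR adjusted p = 0.597). Cry1 ranged from 28.6 to 36.7 CPM in controls and from 27.4 to 38.6 CPM in stressed females, where the overlap came from female control 1 (36.7) and female stressed 2 (27.4), with a log2 fold change of 0.14 (SE 0.09, unadjusted p = 0.153 by edgeR).

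The REV-ERB genes differed little in females. Nr1d1 ranged from 97.8 to 116 CPM in controls and from 102 to 117 CPM in stressed females, with a log2 fold change of 0.04 (SE 0.07). Nr1d2 ranged from 115 to 136 CPM and from 127 to 138 CPM, with a log2 fold change of 0.10 (SE 0.06, unadjusted p = 0.110 by edgeR). For neither was the unadjusted p under 0.05, and in both genes the female groups overlapped.

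On the activator side, Arntl, whose loss alone is known to stop the mouse clock, was at 56.3, 40.5, 36.1, 50.4 and 46.3 CPM in female controls and at 38.7, 35.2, 36.5, 36.4 and 45.9 CPM in stressed females. The 3 highest libraries were controls, and below them the groups were mixed. The means were 45.9 ± 7.96 and 38.6 ± 4.29 CPM, a log2 fold change of -0.24 (SE 0.11, edgeR adjusted p = 0.649), which lay between -0.32 (without female control 3) and -0.13 (without female control 1) when libraries were left out. Clock ranged from 135 to 143 CPM in controls and from 126 to 145 CPM in stressed females, with a log2 fold change of -0.03 (SE 0.05). Npas2 ranged from 57.5 to 83.8 CPM and from 58.2 to 101 CPM, with a log2 fold change of 0.08 (SE 0.12) and a coefficient of variation of 20.6% among the stressed females.

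**Figure D2:**
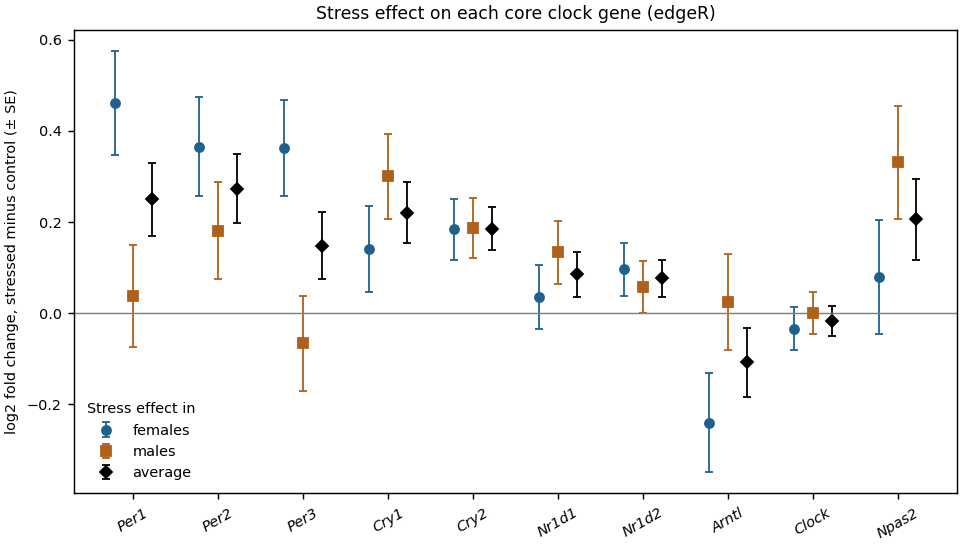
Log2 fold change of stressed over control mice (y axis, points with bars of ± 1 SE from the edgeR fit) for each clock gene (x axis) in females, in males and averaged over the sexes. Per1, Per2 and Per3 lie at 0.46, 0.37 and 0.36 in females, and Npas2 and Cry1 lie at 0.33 and 0.30 in males. None of these effects had an adjusted p under 0.05.

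Because Per and Cry genes lay above and Arntl below 0 in females, their ratios within a library were also taken, a choice made after the values above had been seen, so they are given with no test. A ratio cancels whatever scales both genes of a library alike. The ratio of Per1 to Arntl in CPM was 2.01, 2.16, 1.95, 1.84 and 1.73 in the female control libraries and 2.99, 2.97, 3.24, 3.55 and 3.12 in the stressed ones. Every stressed female library thus lay above every control one, with means of 1.94 ± 0.165 and 3.17 ± 0.235. Per2 to Arntl was 1.36 ± 0.129 in female controls (1.21 to 1.56) and 2.09 ± 0.198 in stressed females (1.91 to 2.41), again without overlap. Per3 to Arntl went from 0.866 to 1.45 in controls and from 1.47 to 1.98 in stressed females, and Cry2 to Arntl from 2.36 to 3.17 and from 3.36 to 4.15. Female control 1 and female control 3, the highest and the lowest control library by Per1 alone, were close together at 2.01 and 1.95. Of the 45 ratios among the 10 genes, 6 did not overlap between the female groups, against 1.26% of the ratios of all pairs of genes, and 4 of the 6 had Arntl as a term. The pairs share genes, so these counts are not independent of each other.

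In males the same ratios were mixed. Per1 to Arntl was 2.69 ± 0.468 over the male control libraries (2.22 to 3.18) and 2.73 ± 0.433 in stressed males (2.21 to 3.20), ranges that nearly coincided. Per2 to Arntl was 1.57 ± 0.201 and 1.74 ± 0.210, and Cry2 to Arntl 3.13 ± 0.280 and 3.56 ± 0.540, both with overlap. Per3 to Arntl went the other way, at 1.38 ± 0.219 in male controls and 1.29 ± 0.161 in stressed males, also with overlap. Only Nr1d1 to Npas2 did not overlap between the male groups, 1 of 45 ratios against 4.09% of all pairs of genes. Male control libraries, at 2.22 or more, lay above every female control library for Per1 to Arntl, and 3 of the 45 ratios did not overlap between the control groups of the sexes (Per1 to Cry1, Arntl and Npas2), against 4.29% of all pairs. Between the stressed groups of the sexes, 4 of the 45 did not overlap (Per1 to Cry2, and Per3 to Nr1d2, Arntl and Clock), against 1.17% of all pairs.

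**Figure D3:**
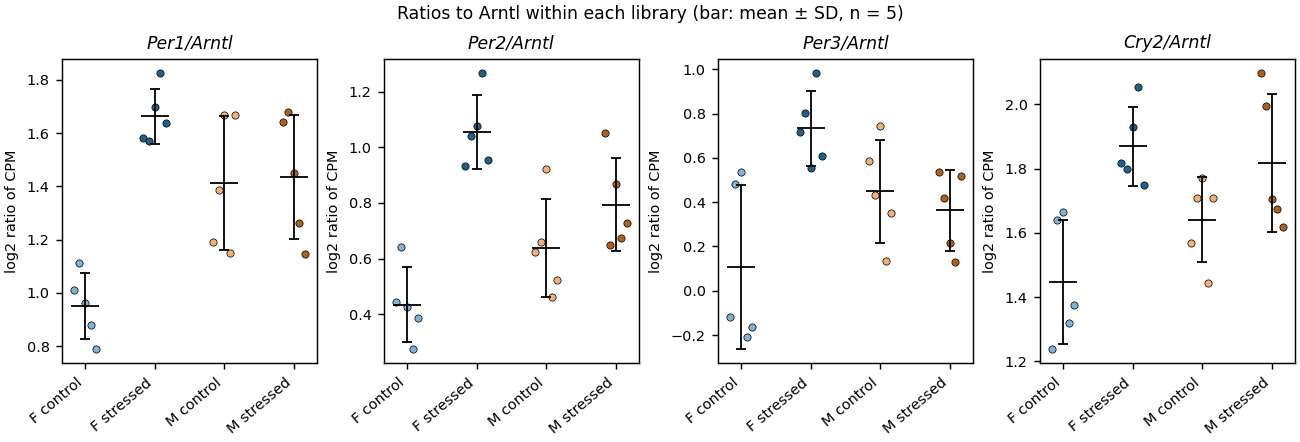
Log2 ratio of Per1, Per2, Per3 and Cry2 to Arntl within each library (y axis, points) in the 4 groups (x axis), with bars at the mean ± SD of 5 libraries. Each ratio is higher in every stressed female library than in every female control library, and the male groups overlap in each.

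The second question is how CVMS altered the adBNST of males. There edgeR called 0 of the 10 clock genes, where it called 0.00770% of all genes, and DESeq2 also called 0 of the 10, with 239 genes called in all. At an unadjusted p under 0.05 there were 3 of the 10, all higher in stressed males, against 15.5% of all genes in either direction and 8.71% in that direction. The 3 were Cry1, Cry2 and Npas2, none of which is a Period gene. Of the 10 genes 9 had a log2 fold change above 0, against 47.6% of all genes, with a median of 0.10.

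Cry1, the stronger repressor of the Cryptochromes, was at 29.2, 30.9, 23.9, 27.3 and 30.1 CPM in male controls and at 30.6, 33.3, 37.6, 37.9 and 34.2 CPM in stressed males. The groups overlapped only through male control 2 and male stressed 1. The means were 28.3 ± 2.82 and 34.7 ± 3.05 CPM, a log2 fold change of 0.30 (SE 0.09, unadjusted p = 0.00384, edgeR adjusted p = 0.125), and DESeq2 gave an adjusted p of 0.0738. Cry2 was at 132, 143, 131, 124 and 123 CPM in male controls and at 149, 161, 161, 137 and 134 CPM in stressed males. Its groups overlapped through male control 2 and the 2 lowest stressed libraries, with a log2 fold change of 0.19 (SE 0.07, edgeR adjusted p = 0.170), nearly the value in females.

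Npas2, the forebrain partner of BMAL1, was at 63.4, 58.9, 52.8, 62.7 and 59.7 CPM in male controls and at 76.7, 88.8, 82.8, 61.5 and 67.8 CPM in stressed males. Male stressed 4 alone fell within the control range. The means were 59.5 ± 4.19 and 75.5 ± 11.03 CPM, a log2 fold change of 0.33 (SE 0.12, unadjusted p = 0.0139, edgeR adjusted p = 0.193). The other activators were level in males: Arntl was at 41.8 ± 3.62 and 42.1 ± 5.37 CPM with a log2 fold change of 0.02 (SE 0.11), and Clock at 142 ± 4.84 and 142 ± 8.05 CPM with one of 0.0010 (SE 0.05).

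None of the Period and REV-ERB genes had an unadjusted p under 0.05 in males, and the groups of each overlapped. Per1 was at 101, 114, 122, 101 and 119.6 CPM in controls and at 108, 129, 135, 103 and 96.7 CPM in stressed males, groups that overlapped nearly whole, with a log2 fold change of 0.04 (SE 0.11). Per2 had means of 65.3 ± 7.36 and 73.2 ± 10.2 CPM and a log2 fold change of 0.18 (SE 0.11, unadjusted p = 0.103 by edgeR). Per3 had means of 57.4 ± 8.39 and 54.2 ± 6.13 CPM and a log2 fold change of -0.07 (SE 0.10), opposite in sign to its value in females. Nr1d1 had means of 98.2 ± 3.00 and 108 ± 14.3 CPM and a log2 fold change of 0.13 (SE 0.07, unadjusted p = 0.0675 by edgeR), and Nr1d2 one of 0.06 (SE 0.06).

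Striatal neuron markers moved with the male groups. The summed level of the 14 genes of that list, of which none was at 0 and the lowest mean was 33.1 CPM (Gpr6), ran from 3114 to 3834 CPM among the male control libraries and, without overlap, from 4365 to 6489 CPM among the stressed ones, with 14 of 14 higher at an unadjusted p under 0.05, none called, and a median log2 fold change of 0.56. In females the same sum ran from 3319 to 5825 CPM in controls and from 3227 to 6494 CPM in stressed mice, with 0 of 14 at that p. The list shares Penk with the adBNST neuron list, so it is not particular to the striatum. With the striatal score as a covariate the male log2 fold changes were 0.09 for Cry1, 0.01 for Cry2, -0.06 for Npas2 and -0.27 for Per1 (SE 0.09, unadjusted p = 0.00619, edgeR adjusted p = 0.856), and the part of these cells in the male values was not tested otherwise. The score itself did not overlap between the male groups, at -0.498 to -0.184 in controls and -0.0171 to 0.559 in stressed males. Score and stress therefore cannot be told apart in males by these adjusted values.

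Averaged over the sexes, edgeR called 0 of the 10 genes, where 0% of all genes were called, while DESeq2 called 0 of the 10 and 13 genes in all. At an unadjusted p under 0.05 were 5 of the 10, all higher in stressed mice (Per1, Per2, Cry1, Cry2 and Npas2), against 12.7% of all genes and 7.45% in that direction. Cry2 had the smallest p of the loop, with a log2 fold change of 0.19 (SE 0.05, unadjusted p = 0.000691, edgeR adjusted p = 0.256), rank 31 of 12988. Per2 was at 0.27 (SE 0.08), Per1 at 0.25 (SE 0.08), Cry1 at 0.22 (SE 0.07) and Npas2 at 0.21 (SE 0.09). The average for Arntl was -0.11 (SE 0.08) and for Clock -0.02 (SE 0.03). Striatal markers stood higher in this average too, with 12 of 14 at an unadjusted p under 0.05, 0 called and a median of 0.31. With their score as a covariate the averages were 0.15 for Per2, 0.09 for Per1, 0.11 for Cry1, 0.09 for Cry2, -0.0017 for Npas2 and -0.23 for Arntl. At an unadjusted p under 0.05 there were then 2 of the 10 higher (Per2 and Cry2) and 1 lower (Arntl), against 3.80% of all genes. The score did not overlap between the male groups, so these adjusted averages cannot tell score and stress apart in males. Without female stressed 2, the library with the high thalamic score, Cry1 at 0.26 and Cry2 at 0.21 were 2 of 150 genes called (1.15% of all), both at an edgeR adjusted p of 0.0399. Over the 20 fits with 1 library left out, their adjusted p ran from 0.0399 to 0.512.

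Between the sexes in control mice, edgeR called 0 of the 10 clock genes against 0.747% of all genes, 97 in number, and DESeq2 called 0 of the 10. At an unadjusted p under 0.05 were 2 of the 10, against 15.3% of all genes (7.08% higher and 8.17% lower in males): Per1 was higher and Npas2 lower in males. Per1 in control males, at 101 to 122 CPM, overlapped control females only through female control 1, with a log2 fold change of 0.32 (male over female, SE 0.11, edgeR adjusted p = 0.173). Npas2 in control males, at 52.8 to 63.4 CPM, lay below all control females except female control 3, with -0.30 (SE 0.13, edgeR adjusted p = 0.247). The other 8 genes lay between -0.17 (Cry1) and 0.18 (Per3). Striatal markers moved here too: 13 of the 14 were lower in control males at an unadjusted p under 0.05, with a median log2 difference of -0.58. Other lists differed between the control groups as well: at that p were 6 of 10 microglial markers (0 called, median -0.21), 5 of 9 endothelial ones (1 called, median -0.24) and 6 of 12 of adBNST neurons (1 called, median 0.03), and their part in the clock gene values was not tested. With the striatal score as a covariate, Per1 was 1 of 69 genes called (0.531% of all), at 0.59 (SE 0.09, edgeR adjusted p = 0.00106). That adjusted p ran from 0.00106 to 0.262 over the alternatives, and Npas2 with the covariate stood at 0.04 (SE 0.08). In control males the score ran from -0.498 to -0.184, and in control females from -0.395 to 0.399. Female control 3 was the only control female within the male range. The score is thus tied to this contrast as well, and the adjusted values cannot tell it apart from sex.

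Between the sexes in stressed mice, edgeR called 0 of the 10 against 0.0770% of all genes, and DESeq2 0 of the 10. Per3 was the 1 gene at an unadjusted p under 0.05, against 7.06% of all genes and 3.35% in that direction, with a log2 fold change of -0.24 (male over female, SE 0.10, edgeR adjusted p = 0.649). It ranged from 46.9 to 62.6 CPM in stressed males and from 53.7 to 72.2 CPM in stressed females. The other 9 genes lay between -0.13 (Per2) and 0.14 (Arntl), with Per1 at 114 ± 16.7 CPM in stressed males and 122 ± 14.5 CPM in stressed females.

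The difference between the male and the female stress effect was tested as an interaction. By edgeR, 0 of the 10 genes passed, where 0% of all genes passed, and DESeq2 called 0 of the 10 and 22 genes in all. At an unadjusted p under 0.05 were 2 of the 10, against 10.4% of all genes and 5.03% in that direction, both Period genes with a smaller effect in males: Per3 at -0.43 (SE 0.15, edgeR adjusted p = 0.348) and Per1 at -0.42 (SE 0.16, edgeR adjusted p = 0.368). Arntl lay on the other side at 0.27 (SE 0.15, unadjusted p = 0.0934 by edgeR), and Cry2 was at 0.0028 (SE 0.09). Striatal markers differed in this contrast too, with 10 of 14 at an unadjusted p under 0.05, 0 called and a median of 0.54, opposite in sign to Per1. The score is thus tied to the contrast it adjusts. With the striatal score as a covariate, Per1 was the 1 gene called of 12988 (0.00770%), at -0.73 (SE 0.12, edgeR adjusted p = 0.0304), against a range of 0.0304 to 0.497 over the alternatives. The responses of the sexes were thus not shown to differ by the test as set out, and Per1 crossed the threshold only with that covariate among the settings run.

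Within groups, the loop genes differed in how much they varied from library to library. The biological coefficient of variation, the spread beyond counting error, was 13.4% for Npas2, 12.3% for Per1, 11.6% for Per2, 11.4% for Arntl and 11.2% for Per3, each above that of at least 80.8% of all genes. It was 9.75% for Cry1, 7.74% for Nr1d1, 7.50% for Cry2 and 6.44% for Nr1d2. Clock was the steadiest at 5.40%, at percentile 9.99 of all genes.

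The members' variation between libraries of a group was partly shared. After group means were removed, 34 of the 45 pairs of clock genes correlated positively over the 20 libraries, with a median r of 0.33, against 49.6% and a median of -0.0036 for all pairs of genes. By permutation within groups with Benjamini-Hochberg adjustment over the 45 pairs, 7 pairs passed, all of them positive, and 15 had an unadjusted p under 0.05. The closest pair was Nr1d1 with Npas2, at r = 0.812 (rho = 0.860, permutation p = 2.0e-05, adjusted p = 0.00090), and r was 0.823 without the 2 libraries farthest from the median. Per1 with Cry2 followed at r = 0.800 (rho = 0.806, adjusted permutation p = 0.0027, 0.796 without 2 libraries). Cry2 with Npas2 was at r = 0.763 (rho = 0.675, adjusted permutation p = 0.0144, 0.686 without 2 libraries).

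Cry1 correlated with Arntl at r = 0.671 (rho = 0.653, adjusted permutation p = 0.0271, 0.726 without 2 libraries), a repressor and an activator that varied together. Per2 with Cry2 was at 0.639 (rho = 0.665, adjusted permutation p = 0.0271, 0.576 without 2 libraries) and Per1 with Npas2 at 0.664 (rho = 0.597, adjusted permutation p = 0.0415, 0.587 without 2). Per2 with Arntl was at 0.657 (rho = 0.534, adjusted permutation p = 0.0492), which fell to 0.446 without female control 1 and female control 3, so it rested on those libraries. The pairs did not behave alike in every group. Within male controls alone, Per1 with Npas2 and Cry2 with Npas2 both correlated negatively, while the other 5 pairs were positive in all 4 groups. With 5 libraries a group, no r is given for single groups. By rank correlation, 5 of the 45 pairs passed, and Per1 with Npas2 and Per2 with Arntl did not. The lowest r among the pairs that passed was 0.639. Of all pairs of genes 2.49% had an r of 0.639 or more, against the 15.6% of clock gene pairs that passed. The cut was set by the clock gene pairs themselves, so these shares are a description and not a test. With 1 library left out, 2 to 8 pairs passed. Against 7 with every library, the count fell by over 1.5 times without female control 1 (3), female control 3 (2), female stressed 2 (3), female stressed 5 (4), male stressed 3 (3) or male stressed 4 (4). No negative pair passed, and the lowest r was -0.230. The sign between Per or Cry genes and Arntl within groups was thus positive where it passed, while between the female groups Per1, Per2 and Cry2 had log2 fold changes above 0 and Arntl one below.

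**Figure D4:**
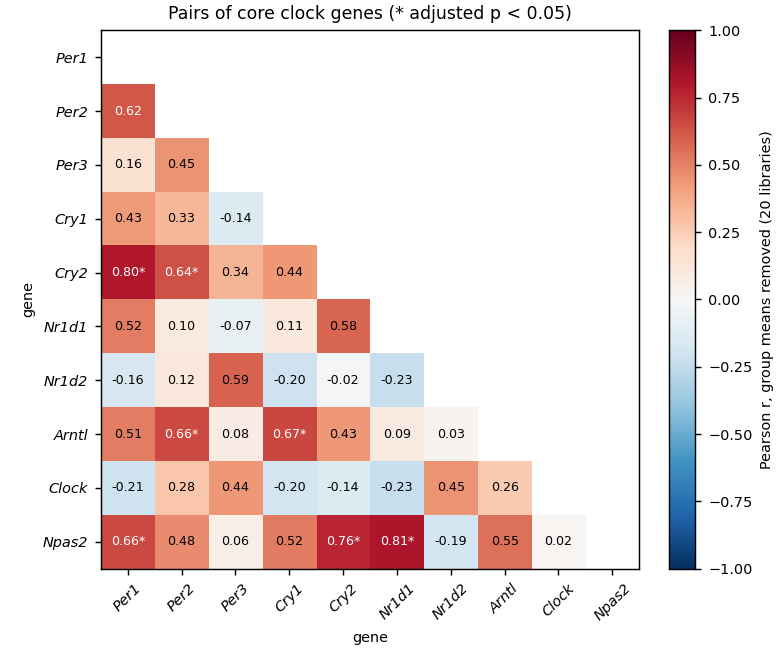
Pearson r between each pair of the 10 clock genes (rows and columns, colour scale from -1 to 1) over 20 libraries after group means were removed, with an asterisk where the permutation p adjusted over 45 pairs is under 0.05. The 7 marked pairs are all positive and join Per1, Per2, Cry2, Npas2, Nr1d1, Cry1 and Arntl, while Clock, Per3 and Nr1d2 have no mark.

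Marker scores of other cells varied along with these genes. Over the 20 libraries with group means removed, and with adjustment over 30 relations, the striatal score correlated with Npas2 at r = 0.870 (rho = 0.811, adjusted permutation p = 0.0013, 0.774 without the 2 farthest libraries, female control 3 and female stressed 2). Cry2 was at r = 0.820 (rho = 0.783, adjusted permutation p = 0.0013, 0.742 without the 2), and Per1 at 0.777 (rho = 0.755, adjusted permutation p = 0.0038, 0.700 without the 2). Cry1, Arntl and Per2 were at 0.687, 0.684 and 0.637 (rho = 0.574, 0.629 and 0.615), with adjusted permutation p of 0.0150, 0.0150 and 0.0210, and at 0.484, 0.605 and 0.515 without the 2 libraries. Nr1d1 was at 0.556 (rho = 0.564, adjusted permutation p = 0.0561). Per3 at 0.0086, Clock at -0.014 and Nr1d2 at -0.153 showed no such relation. When the striatal score was removed along with the group means, an alternative added after seeing the data, 1 of the 45 pairs passed, Nr1d1 with Npas2 (r = 0.802, adjusted permutation p = 0.0126). The oligodendrocyte score correlated negatively with Per2 (r = -0.828, rho = -0.765, adjusted permutation p = 0.0013, -0.742 without 2 libraries) and with Arntl (r = -0.619, rho = -0.562, adjusted permutation p = 0.0408, -0.538 without 2). Total counts passed with none of the 10, the largest r being 0.397 with Clock (rho = 0.331, adjusted permutation p = 0.187).

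**Figure D5:**
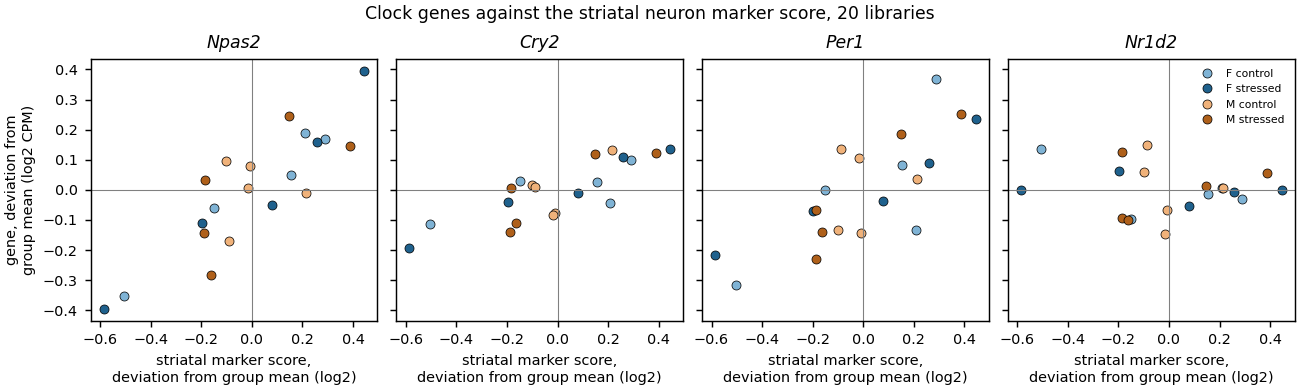
Deviation of each library from its group mean in log2 CPM of Npas2, Cry2, Per1 and Nr1d2 (y axes) against the deviation of the striatal marker score (x axis), 1 point per library and 1 colour per group. Npas2, Cry2 and Per1 rise along the score (r = 0.870, 0.820 and 0.777) and Nr1d2 does not (r = -0.153).

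The genes of the whole table whose pattern was most like each member, by Pearson r over the 20 libraries with group means removed, were not clock genes: 0 of the 20 nearest (2 for each member) came from the loop or from the list of other clock genes. Nearest to Per1 were Egr1 (r = 0.898), an immediate early transcription factor, and Nab2 (0.871), a corepressor of EGR proteins. Nearest to Per2 were Mapk14 (0.937) and Trim46 (0.920), to Per3 Pkd1l3 (0.971) and Kirrel (0.895), to Cry1 Rgs2 (0.886) and Cdc42ep3 (0.848), and to Cry2 Crtc1 (0.907), a coactivator of CREB, and Sgsm2 (0.902). Nearest to Nr1d1 were Atf7ip (0.925) and Supt6 (0.893), to Nr1d2 Haus6 (0.846) and 9330159F19Rik (0.839), and to Arntl Sik2 (0.847) and Mpp3 (0.833). Nearest to Clock were Zfx (0.876) and Appl2 (0.865), and to Npas2 Rbfox1 (0.943), a neuronal splicing factor, and Cnksr2 (0.942). Among clock genes the closest by rank were Cry2, which was 37th of all genes for Per1, and Npas2, which was 41st for Nr1d1.

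Of 20 further genes of the clock (output regulators, kinases and ubiquitin ligases of the loop, and ROR factors), 0 were called by edgeR in any of the 6 comparisons, while DESeq2 called 4 in males (1.84% of all genes), 4 in the average (of 13 genes called among 12988) and 0 in the others. Other edgeR fits called some of the 20 too: 1 in females with the striatal score (Tef, of 0.0308% of all genes), 2 in males with only the groups compared (2.33% of all genes), and in the average 3 with DESeq2 size factors (0.0385%) and 4 without female stressed 2 (1.15%). Leaving out male stressed 5 gave 2 in males, of 129 genes called among 12988. Leaving out male stressed 4 gave 2 in the average, of 3 genes called among 12988. In females 6 of the 20 had an unadjusted p under 0.05, all higher in stressed mice, against 3.69% of all genes in that direction. Tef, a D-box activator, had a log2 fold change of 0.24 (SE 0.06, edgeR adjusted p = 0.377) and Dbp, another D-box activator and a standard readout of CLOCK and BMAL1, one of 0.38 (SE 0.10, edgeR adjusted p = 0.535). Ciart, a repressor of CLOCK and BMAL1, was at 0.32 (SE 0.11, edgeR adjusted p = 0.570). Bhlhe41 (DEC2), an E-box repressor, was at 0.21 (SE 0.05, edgeR adjusted p = 0.396) and was the 1 gene of the 20 whose female groups did not overlap, against 1.22% of all genes and 0 of the 10 core genes. In males 7 of the 20 had an unadjusted p under 0.05, all higher, against 8.71% of all genes, and 5 of the 20 did not overlap between the groups, against 4.30% of all genes and 0 of the 10 core genes. The male values were 0.39 (SE 0.10) for Dbp, 0.21 (SE 0.06) for Tef, 0.35 (SE 0.07) for Hlf and 0.21 (SE 0.05) for Bhlhe41, and the female value of Hlf, another D-box activator, was 0.16 (SE 0.07).

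Other genes induced by glucocorticoids or by activity are set beside Per1 as values. Sgk1 had a log2 fold change of 0.43 (SE 0.16) in females and of -0.84 (SE 0.16) in males, and differed between control males and females by 1.06 (SE 0.16, edgeR adjusted p = 0.0016). Tsc22d3 was at 0.26 (SE 0.10) in females, -0.44 (SE 0.10) in males and 0.64 (SE 0.10, edgeR adjusted p = 0.0026) between the control groups. Fos was at 0.12, -0.39 and 0.51 in these comparisons, and Fkbp5 at 0.14, 0.08 and 0.29. Per1 itself was at 0.46, 0.04 and 0.32.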

How the data were processed

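The authors deposited 1 table of whole-number counts per gene for 20 libraries, not normalized. Per the submitters' processing notes, reads went through STAR and featureCounts with build mm10, and the versions, annotation and strand setting are not given in the sources used here. Per the labels' protocols, tissue of 3 mice was pooled per library and an mRNA kit that marks strand was used. The lowest row total was 1002, so genes below it were not analysed here, and 0 columns lacked a sample. The 10 genes and all lists were chosen with earlier results of these data known.

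From the counts, edgeR 4.0.16 (R 4.3.3) fitted 1 mean per group over all 20 libraries with TMM factors and the quasi-likelihood test, robust option off. The filter filterByExpr kept 12988 genes, and the common biological coefficient of variation was 8.83%. P-values are two-sided and adjusted within a contrast by Benjamini-Hochberg over all 12988 genes, with 0.05 as the threshold for a call. Correlations and scores used log2 CPM with a prior count of 2, computed from the deposited counts, with 100000 permutations of libraries within groups. Their smallest possible p is 1e-05. Exon lengths came from GENCODE M21, with the exons of all transcripts of a gene joined. The code was checked on simulated data. Genes named were the 10 members, the 4 further clock genes with the smallest p in the contrast with the most members at an unadjusted p under 0.05 (females and the average tied), the 2 genes most like each member, and Sgk1, Fkbp5, Tsc22d3 and Fos. Hlf was named by the average. Alternatives were DESeq2 1.42.0, its size factors within edgeR, a minimum of 10 CPM, no filter, a replicate block, the striatal or oligodendrocyte score as covariate, only the groups compared, and leaving out each library. The fit with no filter could not differ from the main one, because filterByExpr had kept all 12988 genes. Lists for astrocytes, microglia, endothelial cells, and septal and hypothalamic neurons served as checks of the dissection, and 3 of the 11 hypothalamic genes were in the table. The replicate numbers did not pair libraries.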

Additional observations from a re-analysis of the deposited data

Results flagged for a closer look

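Of 40 groups of 5 libraries (10 genes in 4 groups), 1 held a library far from the others. Cry1 in female stressed 2 was at 27.4 CPM, while the other stressed females lay between 35.4 and 38.6 CPM. Chance gives such a gap in about 1 of 20 groups. Without that library the log2 fold change of Cry1 in females was 0.23 in place of 0.14. The same library had the highest thalamic score of its group and the lowest striatal one, and whether these bear on its Cry1 level was not tested.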

How the results depend on the processing

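The shallowest library limits precision for the least abundant genes, while at 85 counts or more no clock gene was near 0, and counts of calls near the threshold moved with the settings; the causes were not tested.

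Counts of genes called that moved by over 1.5 times were, for stress in females (0), 1 with DESeq2 and 4 with the striatal score; for stress in males (1), 239 with DESeq2, 10 with the oligodendrocyte score and 303 with only the groups compared. For sex in controls (97) they were 248 with DESeq2, 332 with the oligodendrocyte score and 304 with only the groups compared. For the interaction (0) they were 3 with DESeq2 size factors, 22 with DESeq2, 3 with the 10 CPM minimum, 1 with the striatal score and 11 with the oligodendrocyte score, and for the average (0) 5 with DESeq2 size factors and 13 with DESeq2. Of the 10 clock genes, 1 (Per1) was called with the striatal score in females, in controls and in the interaction. Of the 45 pairs, 1 passed with the striatal score removed, in place of 7.

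Leaving out each library gave 0 genes called in females in each fit, 0 (without male stressed 3) to 129 (without male stressed 5) in males, 32 (without female control 5) to 214 (without female control 3) for sex in controls, 8 to 11 for sex in stressed mice, 0 to 4 for the interaction and 0 to 150 (without female stressed 2) for the average, with 0 to 2 clock genes called in the average and 0 in the other comparisons. Pairs that passed numbered 2 when female control 3 was left out and 8 when female control 2 was.

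Log2 fold changes changed sign with the striatal score as covariate in males (Per1 -0.27, Per2 -0.056, Arntl -0.22, Npas2 -0.058), in controls (Cry1 0.019, Arntl 0.097, Npas2 0.037), in the interaction (Cry1 -0.034, Cry2 -0.16, Nr1d1 -0.028, Npas2 -0.11) and in the average (Npas2 -0.0017). With the oligodendrocyte score, Arntl (-0.0095) and Clock (-0.00068) in males and Per2 in controls (-0.045) did so. Clock in males was at -0.0087 with the 10 CPM minimum and -0.00062 with only the groups compared. Cry2 in the interaction was at -0.0012 with DESeq2 size factors, -0.0011 with DESeq2 and -0.0060 with the 10 CPM minimum. With 1 library left out, values that crossed 0 ran from -0.036 to 0.18 (Npas2, females), -0.032 to 0.095 (Per1, males), -0.039 to 0.078 (Arntl, males), -0.030 to 0.020 (Clock, males), -0.031 to 0.16 (Per2, controls), -0.093 to 0.034, -0.10 to 0.022 and -0.15 to 0.062 (Cry1, Nr1d1 and Npas2, stressed), and -0.045 to 0.039 (Cry2, interaction).

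The replicate block rested on numbers shared across groups, which did not pair libraries: the 30 same-numbered pairs had deviations correlating at -0.47 to 0.24, and 1 of 20 libraries correlated best with its own number. With the block, 48 genes were called for sex in controls in place of 97 and no clock gene in any comparison, Clock in males was at -0.0012 and Cry2 in the interaction at -0.0016.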
